A study of Homo sapiens with 15 samples.

Results

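The subject here is how senescent cells under the kinase inhibitor GNF-7 changed between 6 h and 24 h of exposure. The comparison rests on 6 of the 15 libraries analysed, 3 of GNF-7 treated senescent cells at 24 h and 3 at 6 h, chosen by their treatment and time labels, and it covers every gene that passed a filter on low counts. HT-1080 cells are an established line, grown from a human tumour of connective tissue (fibrosarcoma). Both groups, like the senescent vehicle groups, had expressed a dominant negative mutant of TRF2 (gene TERF2) for 6 days, which uncaps telomeres and makes the cells senescent, and all cells were grown in tet-free serum. They then received 1 uM GNF-7, or the vehicle DMSO, for 6 h or 24 h. Cycling cells without the mutant, in DMSO at 6 h, were in none of the comparisons of time. They entered the filter, the scaling, the shared estimate of the spread and some plots, and their MKI67 level is given for reference. The labels call the libraries of each group biological replicates and do not say whether these were separate cultures, so the p-values measure the spread between these libraries. The promoter that drives the mutant and the number of clones are not given in the sources used here.

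GNF-7 is named in the study's title as an activator of GCN2 (gene EIF2AK4), a kinase that senses uncharged tRNA. GCN2 phosphorylates the initiation factor eIF2, which lowers general translation and favours the transcription factor ATF4. ATF4 and its partners then drive the integrated stress response (ISR), a set of genes for amino acid synthesis and uptake, tRNA charging and feedback on the pathway. Senescent cells have stopped dividing and are known for a secretory phenotype of cytokines, proteases and matrix proteins.

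Library totals in the 6 libraries ranged from 27798923 to 31323470 counts, and from 26034 to 26774 genes had at least 1 count. Genes encoded in mitochondrial DNA took 13.2%, 15.3% and 13.8% of counts in GNF-7 at 6 h and 22.6%, 24.1% and 23.2% at 24 h, against 11.2% to 12.4% and 15.1% to 18.7% in DMSO at the same times. The part of this shift in the values of other genes was not tested beyond the alternative scalings given with the limits. TERF2 (ENSG00000132604), whose mutant form the cells express, was at 212, 227 and 227 CPM (counts scaled to the size of the library) in the 3 GNF-7 libraries at 6 h and at 128, 138 and 130.0 CPM at 24 h. All 24 h values lay below all 6 h values, and TERF2 changed by -0.75 on the log2 scale (SE 0.041, edgeR adjusted p 3.77e-24) against -0.39 over the same hours in DMSO. Reads of the mutant and of the cell's own TERF2 are counted together, and the gene overlaps another on its strand.

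Marker levels were those of a mesenchymal line, which is what the label of a fibrosarcoma line names. Of 11 mesenchymal markers 9 passed the filter, with summed levels of 8773 to 9629 CPM at 6 h and 6021 to 6374 CPM at 24 h, while THY1 had 0 counts in all 6 libraries. Of 10 epithelial markers 2 passed, with sums of 1.33 to 2.06 CPM at 6 h and 3.89 to 5.28 CPM at 24 h, and CLDN3 and GRHL2 were at 0 throughout. For leukocyte markers, 5 of 8 passed with sums of 7.57 to 10.1 and 6.71 to 8.82 CPM, and for endothelial markers 3 of 7 with 1.69 to 1.72 and 1.62 to 2.57 CPM. PTPRC, which marks leukocytes, had at most 6 counts in any of the 6 libraries and EPCAM, which marks epithelia, also at most 6. The counts are from whole cultures, so fewer cells of a kind and less RNA per cell cannot be told apart.

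The transcriptome moved further in GNF-7 than in vehicle over the 18 hours between the times. Of 18563 genes tested, 8870 (47.8%) differed between 24 h and 6 h of GNF-7 at an adjusted p under 0.05, called here, by edgeR's quasi-likelihood test with Benjamini-Hochberg adjustment. Of these, 4281 (23.1% of genes tested) were at a higher level at 24 h and 4589 (24.7%) at a lower one, with 862 rises (4.64%) and 494 falls (2.66%) of 2-fold or more. In DMSO 3443 genes (18.5%) were called over the same hours, 1719 (9.26%) upward and 1724 (9.29%) downward, with 56 rises (0.302%) and 43 falls (0.232%) of 2-fold or more. The median size of the log2 fold change was 0.29 in GNF-7 and 0.15 in DMSO. When libraries were scaled by total counts alone, the share of called genes that were higher fell from 48.3% to 34.3% in GNF-7 and from 49.9% to 12.5% in DMSO. With only genes at a mean of at least 5 CPM, GNF-7 had 139 such rises and 229 such falls, so the balance of large rises and falls depended on the filter. DMSO then had 4 and 7, against 48 and 91 with total counts and 25 and 26 with DESeq2.

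**Figure D1:**
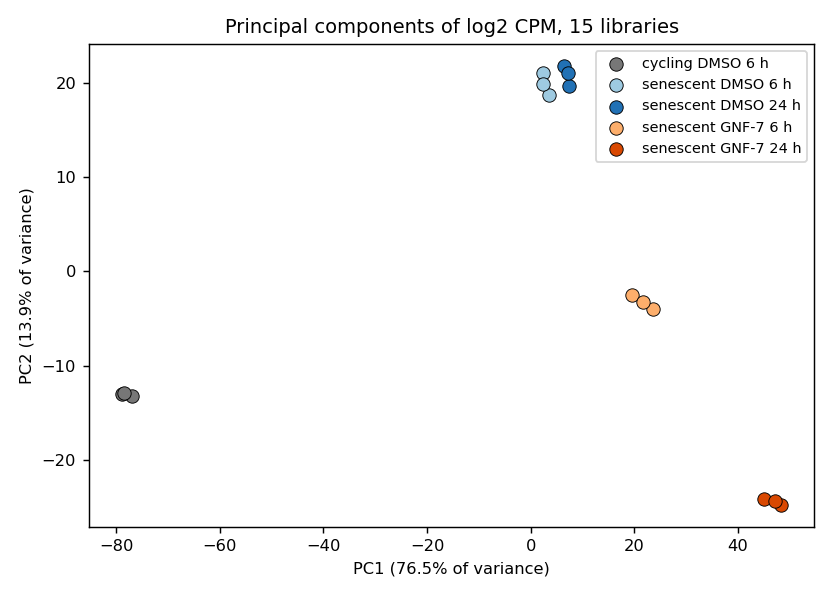
Principal components of log2 CPM over 11233 genes with a mean of at least 5 CPM, 1 point per library, 15 libraries in 5 groups; the axes give PC1 (76.5% of variance) and PC2 (13.9%). The GNF-7 libraries moved from 19.6 to 23.5 on PC1 at 6 h to 45.1 to 48.4 at 24 h, while the senescent DMSO libraries stayed between 2.3 and 7.3 and the cycling libraries lay at -78.9 to -76.9.

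The change over time was then tested for a difference between the treatments, as the log2 fold change in GNF-7 minus that in DMSO. This difference was called for 5723 genes (30.8%), 2373 (12.8%) with the more positive change in GNF-7 and 3350 (18%) with the more negative, and it reached 2-fold for 543 (2.93%) and 382 (2.06%) of these. With only genes at a mean of at least 5 CPM these became 113 and 174, which turned the balance round. The GNF-7 and DMSO comparisons share no library, so their calls could be set side by side. Genes higher at 24 h in both numbered 812, which was 19.0% of those higher in GNF-7 and 47.2% of those higher in DMSO. Genes lower in both numbered 1170, or 25.5% and 67.9% of the respective calls. A further 517 genes were called in opposite directions. Across the 11233 genes with a mean of at least 5 CPM, which are not independent replicates, Pearson's r between the changes was 0.36. In the scatter of both changes, genes near the dashed line had similar changes in both treatments, and genes near the vertical axis had small changes in DMSO.

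**Figure D2:**
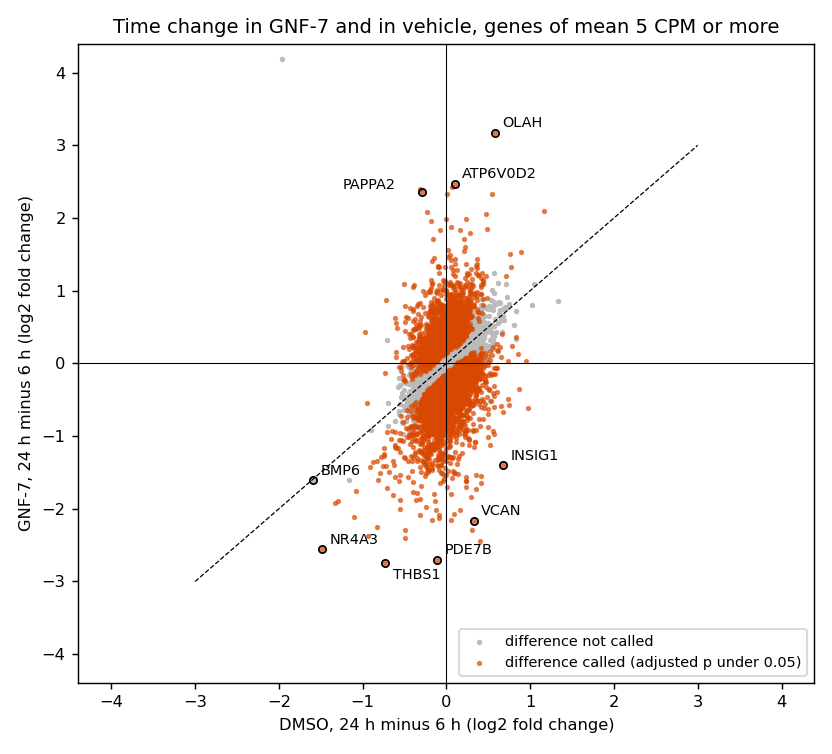
Log2 fold change from 6 h to 24 h in DMSO (horizontal) and GNF-7 (vertical), 1 point per gene with a mean of at least 5 CPM; orange points passed the test of the difference and the dashed line marks equal change. Among orange points OLAH, ATP6V0D2 and PAPPA2 stand near the top and THBS1, PDE7B and NR4A3 near the bottom, while BMP6 (grey) lies on the line at about -1.6 in both treatments.

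PAPPA2 and ATP6V0D2 were among the genes that rose most. PAPPA2 (ENSG00000116183, GRCh38 chromosome 1, 176463171 to 176845605, plus strand) encodes a metalloproteinase that cleaves IGF-binding proteins. Its level was 11.9, 14.2 and 14.2 CPM in the GNF-7 libraries at 6 h and 72.1, 65.5 and 68.2 CPM at 24 h. Every 24 h library lay above every 6 h library, a separation seen for 54.4% of all genes tested in one direction or the other. The rise was 5.1-fold (log2 fold change 2.35, SE 0.081, edgeR adjusted p 1.31e-33). In DMSO PAPPA2 was at 6.13, 6.76 and 6.14 CPM at 6 h and 4.37, 6.42 and 4.84 CPM at 24 h, and these groups overlapped. The difference between treatments was 2.64 (SE 0.14, adjusted p 7.78e-24). ATP6V0D2 (ENSG00000147614, chromosome 8, plus strand), which encodes the d2 subunit of the membrane sector of the V-ATPase proton pump, was at 13.0, 12.8 and 12.2 CPM at 6 h and 70.6, 70.5 and 68.7 CPM at 24 h of GNF-7. The groups were far apart (log2 fold change 2.47, SE 0.08, edgeR adjusted p 3.64e-35). In DMSO it was at 5.70, 5.40 and 5.51 CPM and then 4.82, 6.84 and 6.27 CPM, which overlapped.

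VCAN and PDE7B were among the genes that fell most. VCAN (ENSG00000038427, chromosome 5, 83471465 to 83582303, plus strand) encodes versican, a large chondroitin sulfate proteoglycan of the matrix. It was at 15.7, 14.7 and 16.3 CPM at 6 h of GNF-7 and at 3.27, 4.55 and 2.56 CPM at 24 h. The 24 h libraries, though spread, all lay well below the 6 h libraries (log2 fold change -2.17, SE 0.12, edgeR adjusted p 1.66e-22). In DMSO VCAN rose slightly, from 17.7, 16.4 and 16.7 CPM to 20.5, 19.3 and 24.0 CPM (log2 fold change 0.33, adjusted p 0.016), so the treatments moved in opposite directions. PDE7B (ENSG00000171408, chromosome 6, 135851696 to 136195574, plus strand) encodes a phosphodiesterase that degrades cyclic AMP. Its level was 12.9, 14.5 and 12.9 CPM at 6 h and 1.94, 2.14 and 2.09 CPM at 24 h. That drop of 6.5-fold (log2 fold change -2.70, SE 0.14, edgeR adjusted p 1.13e-25) separated the groups, whereas the DMSO libraries held 11.0, 12.1 and 11.1 CPM and then 10.5, 11.96 and 9.09 CPM and were not called. Among 12 phosphodiesterase genes tested, PDE7B, PDE4D (-1.50), PDE4B (-1.46), PDE10A (-0.52) and PDE8A (-0.48) fell, none rose and 7 were not called. The median of the 12 was -0.01, so the family did not fall as a whole, and 31.8% of all protein-coding genes were called lower.

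**Figure D3:**
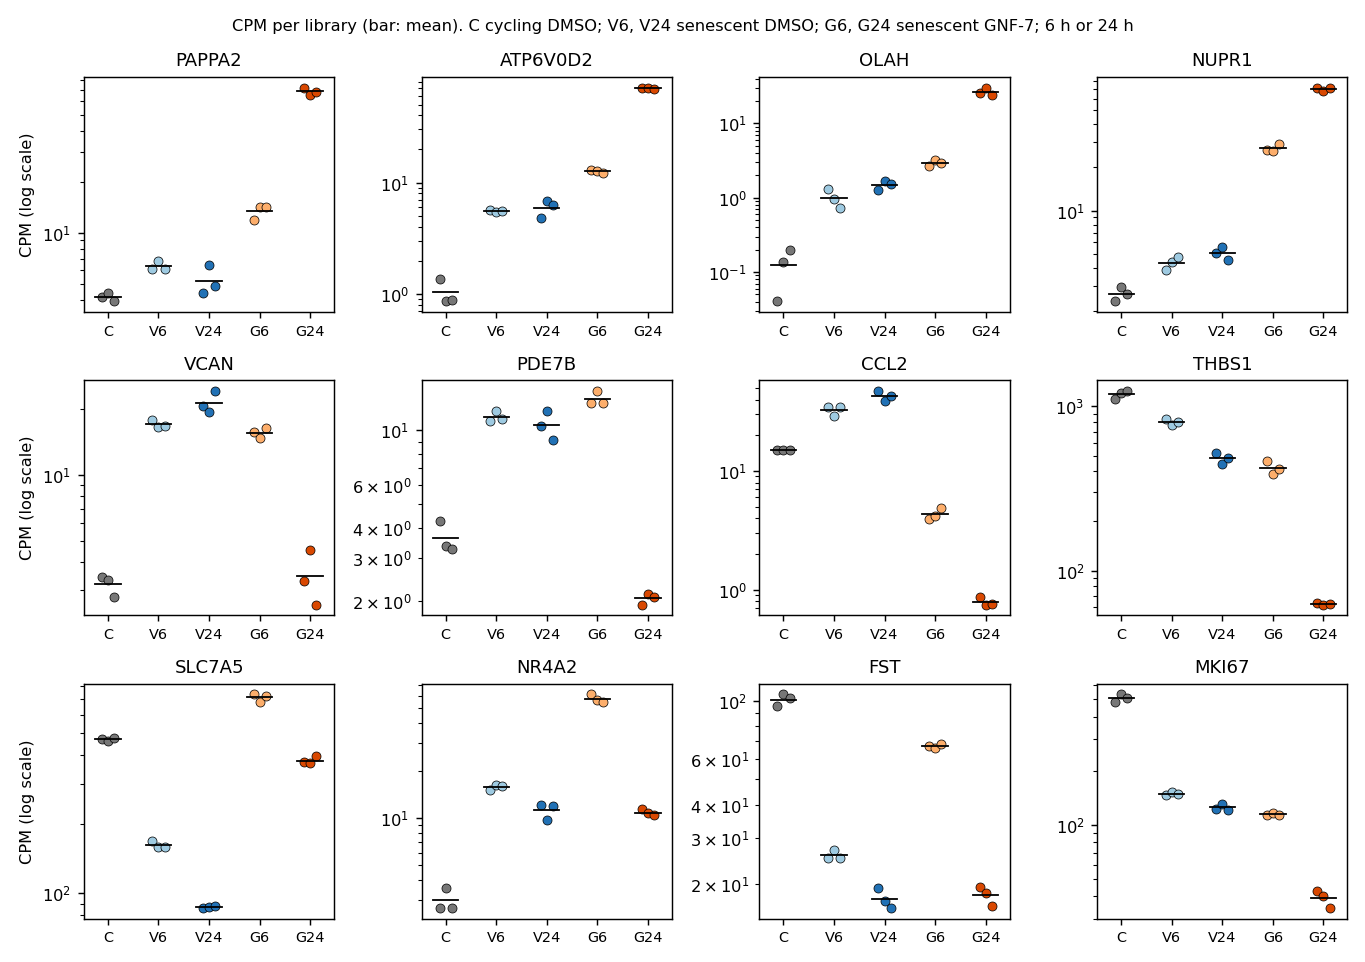
CPM of 12 genes on log axes, 1 point per library and a bar at the mean of each group, for cycling cells in DMSO (C), senescent cells in DMSO at 6 h and 24 h (V6, V24) and in GNF-7 at 6 h and 24 h (G6, G24). PAPPA2, ATP6V0D2, OLAH and NUPR1 are highest at 24 h of GNF-7, and VCAN, PDE7B, CCL2, THBS1 and MKI67 are lower at 24 h than at 6 h of GNF-7.

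The other large rises included several genes of low level. OLAH, which encodes a thioesterase that releases fatty acids from fatty acid synthase, had the largest, from 2.66, 3.22 and 2.90 CPM at 6 h to 25.2, 30.0 and 23.9 CPM at 24 h. No 24 h library came near the 6 h range, and the rise was 9.03-fold (log2 fold change 3.17, SE 0.14, edgeR adjusted p 6.99e-29). OSCAR, an immunoglobulin-like collagen receptor known from osteoclasts, rose from 6.45, 6.75 and 7.25 CPM to 35.0, 37.1 and 37.6 CPM (2.42). KCP, a secreted regulator of BMP signalling, rose from 19.9, 28.1 and 23.2 CPM to 117, 128 and 128 CPM (2.40). LINC02298 (2.90), COL20A1 (2.62), BEX2 (2.33), ZNF117 (2.33), KLHDC7B (2.26), SRCIN1 (2.16) and the interleukin-20 receptor chain IL20RB (2.11) complete the 12 largest rises by the naming rule. In DMSO, BEX2 rose (0.55) and LINC02298 fell (-0.69), and the other 10 were not called. KCP, ZNF117 and IL20RB overlap another gene on their strand and their values are uncertain.

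The 12 largest falls began with THBS1, which encodes thrombospondin-1, an adhesive matrix glycoprotein. THBS1 was at 461, 388 and 416 CPM at 6 h of GNF-7 and 63.5, 61.9 and 62.8 CPM at 24 h, while the DMSO libraries went from 834, 772 and 794 CPM to 519.6, 445 and 482 CPM. It fell in both treatments, by 2.75 on the log2 scale in GNF-7 and by 0.73 in DMSO, with a difference of -2.02 (edgeR adjusted p 4.25e-11). IL7R, a cytokine receptor chain, went from 30.9, 30.4 and 31.1 CPM to 6.75, 6.40 and 6.31 CPM (-2.25, against -0.82 in DMSO). LRRC17, which encodes a leucine-rich repeat protein, fell in GNF-7 (-2.29) and rose in DMSO (0.31). BIRC3, an inhibitor of apoptosis in TNF receptor signalling, fell in both (-2.37 and -0.94). The others were PDE7B, VCAN, the nuclear receptors NR4A2 and NR4A3, INHBA, the transcription factors MYBL1 and MYBL2, and DTL, which are given with their groups. Of the genes in both sets of 12, ATP6V0D2, VCAN, PDE7B, THBS1, LRRC17, KCP and IL20RB overlap a gene on the opposite strand, and the use of strand in counting is not given in the sources used here.

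Genes of the ISR did not move as a block. EIF2AK4, which encodes GCN2, fell slightly in GNF-7 (-0.18, SE 0.043, edgeR adjusted p 0.000252). ATF4, its central transcription factor, was at 439.8, 429 and 432 CPM at 6 h and 618, 599 and 617 CPM at 24 h, all higher at 24 h (0.50, SE 0.035, adjusted p 1.91e-19), and it was not called in DMSO (0.07). NUPR1, a stress-induced chromatin protein, rose more, from 26.4, 26.1 and 29.2 CPM to 70.9, 68.0 and 71.5 CPM (1.36), with 4.33 ± 0.459 CPM at 6 h and 5.07 ± 0.503 CPM at 24 h in DMSO (mean ± SD, n = 3). DDIT3, the stress factor CHOP, and TRIB3, a pseudokinase that restrains ATF4, rose by 0.30 and 0.31. DDIT3 overlaps genes on both strands. Of 13 ISR transcription factors and regulators, 8 rose, 3 fell and 2 were not called (median 0.30), where the median over all genes was 0.02. PPP1R15A (0.52), a regulatory subunit of the phosphatase that reverses eIF2 phosphorylation, TRIB1 (0.53) and TRIB2 (1.09) were among the rises, and ATF3 (-0.45), CEBPB (-0.35) and PPP1R15B (-0.36) fell. At 6 h TRIB1 and TRIB2 lay below DMSO (means of 15.8 against 25.4 CPM and 12.3 against 21.0 CPM). At 24 h they were near it (22.9 against 20.5 CPM and 26.2 against 25.9 CPM). ATF3 also fell in DMSO (-0.34), and the difference between treatments was not called for ATF3 or CEBPB. In DMSO 1 of the 13 rose and 3 fell (median -0.07), and the difference was called for 9, of which 8 were more positive in GNF-7.

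Amino acid synthesis and amino acid uptake went different ways. Of 14 genes of amino acid and one-carbon synthesis, 8 rose and 4 fell (median 0.30). PHGDH, the first enzyme of serine synthesis, was at 133, 128 and 137 CPM at 6 h and 237, 238 and 236 CPM at 24 h. The groups did not overlap (0.84, SE 0.04, edgeR adjusted p 3.57e-27), and PHGDH fell in DMSO (-0.31). PYCR1 of proline synthesis (0.51), SHMT2 of serine and glycine metabolism (0.48) and PSAT1 of serine synthesis (0.38) also rose, and CTH, which makes cysteine from cystathionine, fell (-0.72, against -0.81 in DMSO). ASNS, the asparagine synthetase, rose by 0.38 (adjusted p 0.00953), which was lost with total counts (0.29, adjusted p 0.0534), without replicate 2 at 24 h (0.33, adjusted p 0.0638) and without replicate 1 at 6 h (0.30, adjusted p 0.0837). Of 12 amino acid transporter genes, 8 fell and 2 rose (median -0.32), and in DMSO 10 fell and 0 rose (median -0.32). SLC7A5, the large neutral amino acid transporter, was at 736, 682 and 728 CPM and 372, 369 and 395 CPM in GNF-7, and at 169, 159 and 159.5 CPM and 86.1, 87.5 and 88.1 CPM in DMSO. Its fall was -0.92 in GNF-7 and -0.90 in DMSO, a difference of -0.02 with a 95% interval from -0.14 to 0.10 (edgeR adjusted p 0.848). SLC7A11, the cystine transporter, fell in DMSO (-0.43) and was called slightly higher in GNF-7 (0.11, adjusted p 0.0347). That call was lost with total counts (0.02, adjusted p 0.768), DESeq2 (0.10, adjusted p 0.115), other scalings and filters, and without replicate 1 or 3 at 24 h or replicate 2 or 3 at 6 h (0.07 to 0.11).

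Within the cytosolic tRNA synthetases, 8 of 20 rose and 7 fell, and their median changed sign with scaling (0.03, and -0.07 with total counts). WARS1, the tryptophan enzyme, stood out with 316, 320.3 and 311 CPM at 6 h and 529, 551 and 546 CPM at 24 h (0.78). FARSA (-0.48) and FARSB (-0.69), the subunits of the phenylalanine enzyme, fell. Of 15 stress effectors, 6 rose and 5 fell, where 24.8% of all protein-coding genes were called higher and 31.8% lower. INHBE, an activin-like hormone of the liver (1.20), NDRG1 (1.05) and the growth factor VEGFA (0.60) rose. BCL2L11, which encodes the pro-apoptotic protein BIM (-0.80), and DDIT4 (-0.38), an inhibitor of mTORC1 signalling, fell. In DMSO NDRG1 (0.41) and VEGFA (0.10) also rose, and INHBE, BCL2L11 and DDIT4 were not called. CHAC1, which degrades glutathione, was at 59.1, 58.4 and 62.8 CPM and 68.1, 69.7 and 68.9 CPM, a rise of 0.20 (edgeR adjusted p 0.0041) that was not called with total counts (0.10, adjusted p 0.148). The promoter of CHAC1 is shown because it holds the composite element bound by ATF4 with C/EBP factors, written TGATGNAAN. The window is the 250 bases before the RefSeq start (GRCh38.p14, chr15:40953221-40953470, plus strand), and capitals mark the match, which reads on the opposite strand.
CHAC1: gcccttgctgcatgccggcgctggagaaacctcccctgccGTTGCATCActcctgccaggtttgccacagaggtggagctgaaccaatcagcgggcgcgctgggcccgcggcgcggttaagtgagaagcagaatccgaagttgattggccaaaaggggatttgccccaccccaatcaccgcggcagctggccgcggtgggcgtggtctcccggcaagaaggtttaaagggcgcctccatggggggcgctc
Of 78 genes in the ISR lists, 61 matched RefSeq with 92 promoters. The element was present on either strand in 14 of these (15.2%) and in 3.13% of all 35116 promoters of the same length.

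Sterol genes fell in GNF-7 and rose in vehicle. Of 24 genes for cholesterol synthesis and uptake, 21 fell and 0 rose in GNF-7 (median -0.58), while 18 rose and 0 fell in DMSO (median 0.31). The difference was called for 22, and all 22 were more negative in GNF-7. INSIG1, a sterol-regulated anchor of the transcription factor that controls the pathway, was at 44.5, 40.8 and 42.7 CPM at 6 h and 14.9, 16.9 and 16.6 CPM at 24 h of GNF-7, and at 27.6, 23.1 and 26.9 CPM and 44.5, 38.0 and 41.6 CPM in DMSO. Its fall of 1.40 on the log2 scale (SE 0.066, edgeR adjusted p 8.53e-27) contrasted with a rise of 0.68 in DMSO. SREBF2, which encodes that factor, fell by 0.64 on the log2 scale in GNF-7 and rose in DMSO (0.23). MSMO1, which removes methyl groups from the sterol ring, and ACAT2, an acetyl-CoA acetyltransferase of the first step, fell in GNF-7 (-1.12 and -0.88) and rose in DMSO (0.53 and 0.49). In the plot of sterol genes by treatment, the points for GNF-7 and DMSO fall on opposite sides of 0 for nearly all members shown.

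**Figure D4:**
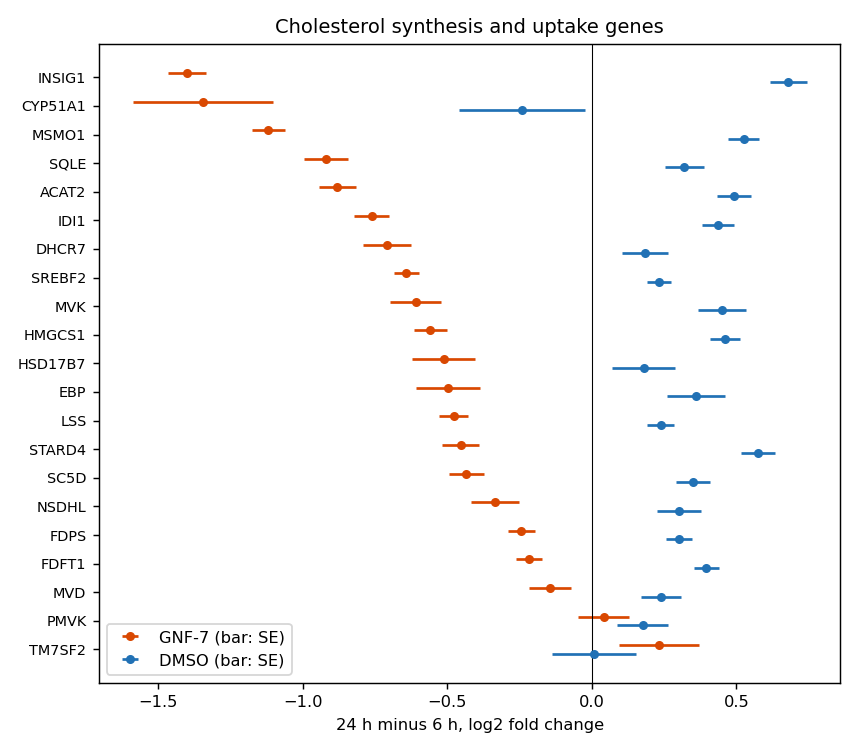
Log2 fold change from 6 h to 24 h of 21 of the 24 cholesterol genes tested, in GNF-7 (orange) and DMSO (blue), each with its standard error from the fit. Values in GNF-7 run from -1.40 for INSIG1 to 0.23 for TM7SF2, and in DMSO from -0.24 for CYP51A1 to 0.68 for INSIG1.

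The INSIG1 promoter is shown because CCAAT boxes, which bind NF-Y, lie in many promoters of this group (GRCh38.p14, chr7:155297628-155297877, plus strand, capitals mark CCAAT or its reverse complement ATTGG).
INSIG1: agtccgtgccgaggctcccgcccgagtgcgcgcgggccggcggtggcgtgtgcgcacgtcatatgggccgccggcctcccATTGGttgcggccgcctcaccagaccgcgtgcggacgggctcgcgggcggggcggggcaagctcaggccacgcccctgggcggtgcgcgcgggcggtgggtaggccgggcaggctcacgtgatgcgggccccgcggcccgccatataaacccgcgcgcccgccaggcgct
CCAAT was present on either strand in 18 of 23 promoters of the sterol genes (78.3%, 18 of 25 genes matched) and in 32.0% of all promoters. Fatty acid genes also moved. Of 17 tested, 12 fell and 4 rose in GNF-7 (median -0.60), and 3 fell and 5 rose in DMSO (median 0.13). The falls included the desaturases FADS1 (-0.93), FADS2 (-0.69) and SCD (-0.60) and the fatty acid synthase FASN (-0.61), and OLAH was the largest rise. FADS1, FADS2 and SCD rose in DMSO, by 0.31, 0.32 and 0.41.

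Cell cycle genes fell under GNF-7. Of 41 genes of mitosis and the kinetochore, 39 fell and 0 rose (median -1.05), with 23 down by at least 2-fold. In DMSO 16 fell and 1 rose (median -0.13), and the difference was more negative in GNF-7 for 39. MKI67, which encodes the proliferation marker Ki-67, was at 113, 116 and 114 CPM at 6 h and 42.8, 40.1 and 34.3 CPM at 24 h of GNF-7, against 146, 153 and 148 CPM and 123, 130.4 and 122 CPM in DMSO. The GNF-7 groups did not overlap (-1.55, SE 0.05, edgeR adjusted p 8.41e-31), and cycling cells held 509 ± 24.3 CPM (mean ± SD, n = 3). TOP2A, the mitotic topoisomerase, fell by 1.45 on the log2 scale, the cyclin-dependent kinase CDK1 by 1.51 and Aurora kinase B (AURKB) by 1.34. MYBL2, a transcription factor of the cell cycle complexes that bind such promoters, went from 11.4, 10.7 and 11.6 CPM to 1.94, 2.50 and 3.09 CPM (-2.16). Its relative MYBL1 fell by 2.15 on the log2 scale and was not called in DMSO (0.05).

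The promoters of MKI67 (chr10:128126424-128126673, minus strand) and TOP2A (chr17:40417897-40418146, minus strand) are shown with the same window and build because both hold the paired elements of late cell cycle genes. Capitals mark CCAAT and TTTGAA, the core of the cell cycle homology region, on either strand (ATTGG and TTCAAA). The matches overlap in the last capitals of MKI67.
MKI67: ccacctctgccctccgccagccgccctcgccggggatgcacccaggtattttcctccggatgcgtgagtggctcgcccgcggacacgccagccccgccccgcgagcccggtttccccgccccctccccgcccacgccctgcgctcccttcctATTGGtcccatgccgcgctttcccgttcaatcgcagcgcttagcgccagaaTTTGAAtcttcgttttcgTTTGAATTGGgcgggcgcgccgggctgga
TOP2A: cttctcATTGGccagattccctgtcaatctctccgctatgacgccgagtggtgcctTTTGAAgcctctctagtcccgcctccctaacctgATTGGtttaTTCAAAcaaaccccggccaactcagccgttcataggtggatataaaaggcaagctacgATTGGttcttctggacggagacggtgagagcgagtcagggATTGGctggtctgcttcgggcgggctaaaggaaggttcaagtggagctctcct
MKI67 has 2 matches of each, and TOP2A has 4 of CCAAT and 2 of TTTGAA. Among 42 promoters of 34 matched mitosis genes, 31 (73.8%) held CCAAT and 19 (45.2%) held TTTGAA, against 32.0% and 13.3% of all promoters. Among 47 promoters of replication genes the shares were 57.4% and 4.26%.

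Replication and repair genes followed. Of 43 genes for DNA replication and nucleotide synthesis, 36 fell and 1 rose in GNF-7 (median -0.53), while 7 fell and 2 rose in DMSO (median -0.03). RRM2, a subunit of ribonucleotide reductase, was at 33.0, 35.5 and 34.2 CPM and 7.82, 7.70 and 8.60 CPM in GNF-7 (-2.09, SE 0.065, edgeR adjusted p 4.03e-36) and was not called in DMSO (-0.09). The replication factor MCM10 fell by 2.09 on the log2 scale and the subunit MCM2 of the replicative helicase only by 0.48. Cyclin E1 (CCNE1) was the 1 rise (0.42). DTL, which directs the degradation of licensing factors in S phase, fell by 2.13 on the log2 scale. Of 18 DNA repair genes 15 fell and 0 rose (median -0.86). The p53 targets did not share a direction, with 8 of 28 higher and 10 lower, beside 24.8% and 31.8% of all protein-coding genes. CDKN1A was at -0.15 and FAS, a death receptor, at -0.67.

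Genes of the matrix and of cell adhesion fell. Of 30 matrix proteoglycans and glycoproteins, 25 fell and 2 rose in GNF-7 (median -0.34), whereas 11 rose and 5 fell in DMSO (median 0.09). FN1, fibronectin, was at 2028, 1757 and 1886 CPM at 6 h and 885, 831 and 864 CPM at 24 h of GNF-7, which did not overlap (-1.14). SPARC, a collagen-binding matrix protein, fell by 1.80 on the log2 scale and was not called in DMSO (0.06). TGFBI, a matrix protein induced by TGF-beta, went from 50.7, 48.6 and 49.2 CPM to 15.9, 16.7 and 15.7 CPM (-1.62). The laminin chain LAMA5 rose (0.84, against 0.24 in DMSO). Collagens were split, with 6 of 19 higher and 7 lower, beside 24.8% and 31.8% of all protein-coding genes. Among them were COL6A2 (0.90, against 0.22 in DMSO) and COL4A1 (-0.98, against -0.44 in DMSO). Of 14 integrins 10 fell and 1 rose (median -0.33).

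Targets of YAP and SRF, which read mechanical tension and the actin pool, were lower too. Of 23 tested, 21 fell and 2 rose in GNF-7 (median -0.54), and 11 fell and 4 rose in DMSO (median -0.15). CCN2 (-1.50), CCN1 (-1.29) and ANKRD1 (-1.17), standard YAP targets, fell, as did beta-actin (ACTB, -0.65), and smooth muscle actin (ACTA2) rose (0.48). The TEAD site CATTCC was present on either strand in 9 of 28 promoters of this list (32.1%, 19 of 24 genes matched) and in 11.9% of all promoters. CCN1, CCN2 and ANKRD1 also fell in DMSO, by 0.50, 0.68 and 0.60 on the log2 scale.

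Ligands and antagonists of the TGF-beta family were among the falls, with 14 of 22 genes of TGF-beta, BMP and activin signalling lower and 3 higher (median -0.35). In DMSO 10 of the 22 fell and 2 rose (median -0.20). The difference was more negative in GNF-7 for 10, more positive for 3 and not called for 9. INHBA, the activin A subunit, was at 13.2, 13.6 and 12.8 CPM and 2.84, 2.92 and 2.29 CPM in GNF-7 (-2.29, SE 0.13, edgeR adjusted p 4.85e-24) and fell less in DMSO (-0.49). FST, the activin antagonist follistatin, went from 66.9, 66.0 and 68.0 CPM to 19.4, 18.5 and 16.5 CPM in GNF-7 (-1.88), and from 25.1, 26.8 and 25.1 CPM to 19.3, 17.1 and 16.1 CPM in DMSO (-0.55). At 24 h the libraries of both treatments overlapped in FST. TGFB2 (-1.31) and TGFB3 (-1.26) fell.

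Several genes that respond early to stimuli were lower at 24 h of GNF-7 than at 6 h. NR4A2, an orphan nuclear receptor of this class, was at 61.2, 56.4 and 54.6 CPM at 6 h and 11.3, 10.8 and 10.4 CPM at 24 h, where DMSO held 15.1, 16.1 and 16.0 CPM and 12.1, 9.63 and 11.8 CPM. The 24 h libraries of both treatments overlapped, and the fall in GNF-7 was -2.41 (SE 0.082, edgeR adjusted p 2.23e-34). NR4A3 fell from 16.8, 17.5 and 17.5 CPM to 2.67, 3.02 and 3.12 CPM (-2.55, against -1.48 in DMSO). Of 18 immediate early genes 8 fell and 3 rose in GNF-7 (median -0.43), with JUN (0.22) and JUND (0.40) higher and FOSL2 (-0.71) lower. In DMSO 8 of the 18 also fell and 2 rose (median -0.26), with JUND (0.56) among the rises. The difference between treatments was not called for 11 of the 18. Of 24 tyrosine kinase genes 13 fell and 6 rose, with IGF1R (-1.42), MET (-1.07) and ABL1 (-0.75) lower and MERTK (1.21) higher. In DMSO 6 of the 24 fell and 0 rose. IGF1R (-0.755), ABL1 (-0.25) and MET (-0.11) also fell there, and MERTK was not called (-0.06). The difference was more negative in GNF-7 for 13, more positive for 5 and not called for 6.

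Inflammatory genes of the secretory phenotype diverged from one another. CCL2, a monocyte chemokine, was at 3.92, 4.18 and 4.84 CPM at 6 h and 0.868, 0.747 and 0.764 CPM at 24 h of GNF-7, while the DMSO libraries held 34.7, 28.9 and 34.5 CPM and 47.1, 39.2 and 42.6 CPM. It fell in GNF-7 (-2.44, SE 0.17, edgeR adjusted p 4.46e-19) and rose in DMSO (0.40). IL1B, the cytokine interleukin-1 beta, rose from 154, 149.6 and 149.9 CPM to 336, 360.2 and 344 CPM in GNF-7 (1.20) and from 116, 112 and 118 CPM to 168, 151 and 159 CPM in DMSO (0.47), and the difference of 0.73 was called (edgeR adjusted p 1.5e-16). IL24, a cytokine of the interleukin-10 family, rose in GNF-7 (0.58) and fell in DMSO (-0.39). IL6 fell in both treatments, by 0.86 on the log2 scale in GNF-7 and 1.62 in DMSO, with a difference of 0.76 (edgeR adjusted p 0.0181). Of 13 cytokine and receptor genes in the list 3 rose and 6 fell, and 5 of 13 chemokine genes passed the filter, with 1 higher and 2 lower. Interferon-stimulated genes rose in DMSO for 14 of 31 and fell for 0 (median 0.25). In GNF-7 5 rose and 6 fell, and that median changed sign with scaling (0.07, and -0.03 with total counts).

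**Figure D5:**
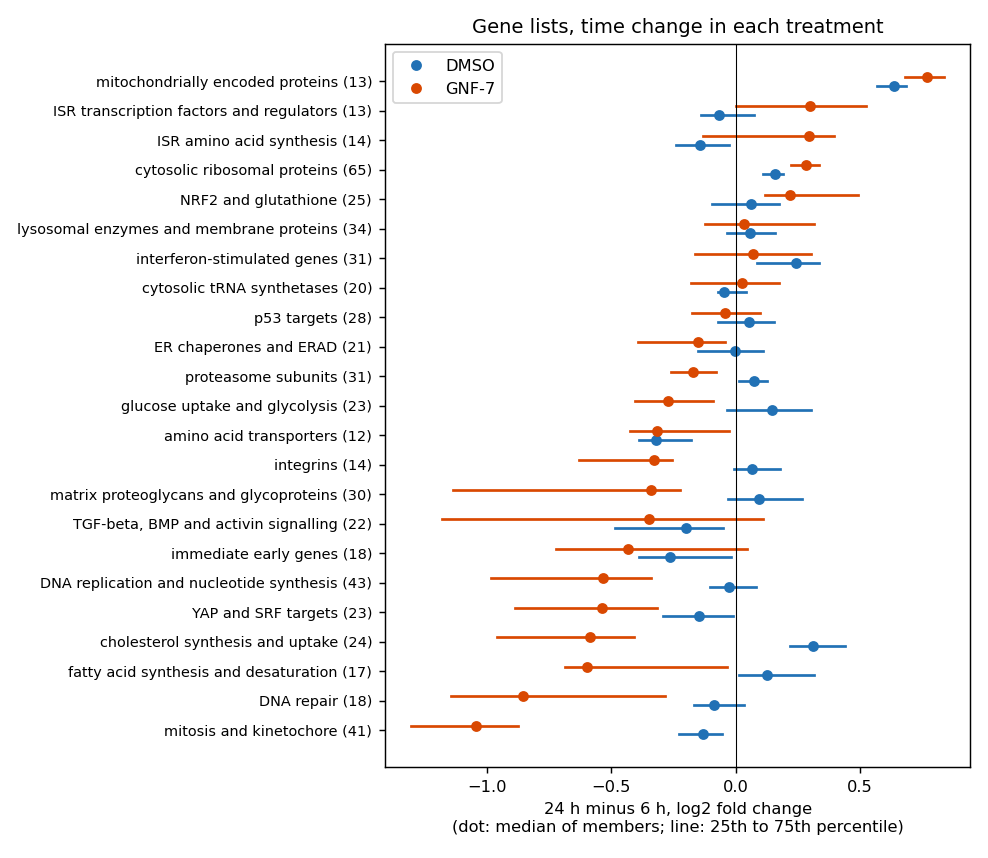
Median log2 fold change from 6 h to 24 h (dot) and the span from the 25th to the 75th percentile of members (line) for 23 gene lists, in GNF-7 (orange) and DMSO (blue), with the number of genes tested in brackets. Sterol, glycolysis and matrix lists lie left of 0 in GNF-7 and right of 0 in DMSO, and the mitochondrially encoded list lies right of 0 in both.

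Protein genes of mitochondrial DNA, which encode subunits of the respiratory chain and ATP synthase, rose in both treatments. Of 13 protein genes in mitochondrial DNA 12 rose and 0 fell in GNF-7 (median 0.77), and 12 also rose in DMSO (median 0.64). The difference was called for 0 of the 13 by edgeR, DESeq2 or limma voom, and an unadjusted p under 0.05 was found for 0, 0 and 1 of them by these tools. MT-ND4, a subunit of complex I, went from 19220, 22050 and 19570 CPM to 37180, 39400 and 37960 CPM in GNF-7 (0.91) and overlaps another gene on its strand. Of 40 nuclear genes for respiratory chain subunits 4 rose and 14 fell in GNF-7 (median -0.05), beside 31.8% of all protein-coding genes called lower and their median of -0.02, and in DMSO 13 rose and 0 fell (median 0.09). Cytosolic ribosomal protein genes rose in 64 of 65 cases (median 0.28), in 56 of 65 in DMSO (median 0.16), and the difference was more positive in GNF-7 for 34. With total counts 55 of the 65 still rose (median 0.19).

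Genes of glucose metabolism and of the proteasome fell in GNF-7. Of 23 glucose uptake and glycolysis genes, 17 fell and 2 rose in GNF-7 (median -0.27), 13 rose and 2 fell in DMSO (median 0.15), and the difference was more negative in GNF-7 for 18. SLC2A1, the glucose transporter GLUT1, fell by 1.02 on the log2 scale. LDHA, lactate dehydrogenase A, fell in GNF-7 (-0.52) and rose in DMSO (0.36). Of 31 proteasome subunits 21 fell and 0 rose in GNF-7, and 10 rose and 0 fell in DMSO (median 0.08, not recomputed with total counts). The difference was more negative in GNF-7 for 21. NRF2 targets and glutathione genes moved the other way, with 18 of 25 higher and 1 lower (median 0.22, and 13 higher with total counts). Among them were FTH1 (0.71) and FTL (0.52), the ferritin chains, HMOX1, haem oxygenase (0.58), and GCLC (0.54) and GCLM (0.49), which make the first enzyme of glutathione synthesis. In DMSO 8 of the 25 rose and 3 fell (median 0.06), with FTL (0.21) and HMOX1 (0.39) among the rises. The difference was more positive in GNF-7 for 11 and not called for 13.

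Lysosomal genes were mixed and their median depended on scaling (0.03, and -0.06 with total counts). Of 34 tested 14 rose and 8 fell in GNF-7, and 13 rose and 2 fell in DMSO (median 0.06). The difference was more positive in GNF-7 for 10 and more negative for 10. GPNMB, a lysosomal membrane glycoprotein, went from 88.0, 80.2 and 81.7 CPM to 150.1, 142 and 144 CPM in GNF-7 (0.80), and the protease CTSD (0.49) and the ceramidase ASAH1 (0.60) rose. CTSD and ASAH1 also rose in DMSO, by 0.23 and 0.16, and GPNMB was not called there (0.02). MITF, a transcription factor of this pathway, fell from 19.9, 17.9 and 18.1 CPM to 7.45, 8.22 and 7.14 CPM (-1.29), as did its relative TFEB (-0.92). Among 21 V-ATPase subunits 5 rose and 7 fell, near the shares of all protein-coding genes (24.8% higher and 31.8% lower). ATP6V0D2 was the largest rise, and ATP6V0D1, its paralog, fell slightly (-0.17).

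Some genes were chosen after their values were seen, to illustrate agreement and opposition between the treatments. BMP6, a bone morphogenetic protein, was at 33.3, 30.2 and 37.5 CPM and 12.2, 10.2 and 10.9 CPM in GNF-7 and at 16.3, 15.3 and 17.3 CPM and 6.12, 4.90 and 5.15 CPM in DMSO. Each treatment lost about the same share (-1.60 and -1.59), and the difference was -0.01 with a 95% interval from -0.34 to 0.30. CILP2, a cartilage matrix protein, rose in GNF-7 (1.56) and fell in DMSO (-0.58). PDK2, a kinase that inhibits pyruvate dehydrogenase, did so too (1.06 and -0.40), as did IL18R1, an interleukin-18 receptor chain (0.87 and -0.73).

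By class of gene, 24.8% of 13525 protein-coding genes tested were called higher and 31.8% lower at 24 h of GNF-7. Long non-coding genes were 20.3% higher and 6.51% lower of 3347, with a median log2 fold change of 0.21 against -0.02 for protein-coding genes and 0.08 for long non-coding genes in DMSO. Pseudogenes were 15.9% higher and 4.85% lower of 1073. The filter could pass a gene of low level through only the group where it was high. The classes were not compared at matched levels, so the part of the filter in these shares was not tested. Protein-coding genes that rose by at least 2-fold had a median of 0.963 CPM at 6 h and 2.48 CPM at 24 h of GNF-7. Those that fell by at least 2-fold had 14.4 and 5.18 CPM, and all protein-coding genes tested 24.5 and 23.6 CPM. These genes were picked by the change between the 2 times, so their contrast at either time is set in part by the choice.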

How the data were processed

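RNA sequencing libraries of HT-1080 cells were analysed from 1 table of raw counts per Ensembl gene, which the authors deposited without normalization. The submitters' processing notes name bcl2fastq 2.20.0.422, STAR 2.7.9a, featureCounts 1.5.1 and GRCh38, and the labels' protocols a stranded mRNA kit. Whether counting used strand is not given in the sources used here, so values of overlapping genes are uncertain. Of 60673 rows, 3 were left out because 1 gene entry (ANK2) was broken over several lines, and 60400 of the 60670 genes kept had a symbol in the name table. Gene coordinates are from GENCODE 29 on GRCh38, and promoters from RefSeq on GRCh38.p14.

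All 15 libraries (25991007 to 32323393 counts) were fitted together with edgeR 4.0.16 (R 4.3.3), with the robust quasi-likelihood test, filterByExpr, TMM scaling, a term for each of 5 groups and Benjamini-Hochberg adjustment over all 18563 genes, for 3 contrasts. These were GNF-7 at 24 h against 6 h, DMSO at 24 h against 6 h, and the difference of these changes. The standard error is the size of the log2 fold change divided by the square root of F, and 95% intervals use 10 residual degrees of freedom. Counting floors cover sampling only, as the reads carry no molecular identifiers. No pair of libraries within a group agreed to within sampling noise, and none was left out.

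The members and the 50 gene lists were chosen with earlier results of these data known, and lists are described by counts and medians without a test. In GNF-7, 24.8% of all protein-coding genes tested were called higher and 31.8% lower. Counts within lists are to be read beside these shares. Genes were named by rule: 4 markers (PAPPA2, ATP6V0D2, VCAN, PDE7B), the 12 genes that rose most and the 12 that fell most, taken from called genes that had a symbol, averaged 5 CPM or more over the GNF-7 libraries and showed no overlap of the groups, the 3 members of each list with the smallest p, the 6 largest differences in each direction among called genes averaging 5 CPM or more over the 12 senescent libraries, and 10 set genes (ATF4, ASNS, CDKN1A, CHAC1, DDIT3, EIF2AK4, IL6, MKI67, TERF2, TRIB3). Other list members named, and INSIG1, BMP6, CILP2, PDK2 and IL18R1, were chosen after their values were seen. Some genes that the rule names are not reported here.

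Replicate numbers come from the labels. Deviations from the group means over 11233 genes correlated between GNF-7 libraries of the same number (0.254, 0.244 and 0.126), which was taken as pairing. They did so less evenly between DMSO libraries (0.0935, 0.184 and -0.0881), where replicate 3 at 24 h and replicate 1 at 6 h reached 0.127. The labels do not state a pairing, and the p-values and standard errors printed come from the fit without a replicate block. Alternatives were other scalings, other filters, DESeq2 1.42.0, limma voom 3.58.1, a replicate block, leaving out each library and a fit restricted to the compared groups. On simulated counts of 18195 genes for the GNF-7 comparison edgeR recovered 94 of 100 genes changed 2-fold and 85 of 100 changed 1.5-fold, with 13 false calls. The simulation changed 200 genes, none of very low level, and drew each library independently, without pairing of replicates. In the data 47.8% of genes were called, so these figures do not measure the error of the calls reported.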

Additional observations from a re-analysis of the deposited data

Results flagged for a closer look

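The time change differed between GNF-7 and DMSO by a test of the difference itself (edgeR's quasi-likelihood test with Benjamini-Hochberg adjustment) for 5723 genes. Among the 12 genes with the largest differences by the naming rule, which asks for a mean of at least 5 CPM over the 12 senescent libraries, the change in GNF-7 exceeded that in DMSO by 2.71 on the log2 scale for KCP, 2.64 for PAPPA2, 2.59 for OLAH, 2.38 for KLHDC7B, 2.37 for ATP6V0D2 and 2.36 for OSCAR. LINC02298 (3.59) and COL20A1 (2.96) had larger differences and averaged less than that. It lay below that in DMSO for CCL2 (-2.83), LRRC17 (-2.60), PDE7B (-2.59), VCAN (-2.49), MYBL1 (-2.20) and PLEKHG4 (-2.18), a gene for a guanine nucleotide exchange factor.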

How the results depend on the processing

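No alternative moved the number of genes called in any of the 3 contrasts by more than 1.5 times. For GNF-7 at 24 h against 6 h, 8870 genes became 7219 when only genes averaging 5 CPM or more were kept, 9123 with limma voom and 8722 with DESeq2, and 7972 to 8581 when each library was left out. For DMSO 3443 became 5019 with total counts and 2535 to 2994 when each library was left out, and for the difference 5723 became 5172 to 5750 when each library was left out. With a replicate block, which follows the pairing assumed for the GNF-7 libraries, the counts were 9018, 3711 and 5921. The block ended no call in GNF-7 among the 217 genes tried, 169 named by the rule and 48 chosen after their values were seen. Scaling by total counts shifted the median over all genes in GNF-7 from 0.02 to -0.07 (log2), and with it the balance of higher and lower genes. In DMSO it shifted that median from 0.01 to -0.10. Lists in DMSO were not recomputed with total counts, so their small medians may depend on scaling. Such medians include those of matrix glycoprotein (0.09), nuclear respiratory chain (0.09) and proteasome (0.08) genes. Of these 217 genes, 8 changed a call or a direction in GNF-7 under some alternative, namely ASNS, CHAC1 and SLC7A11 (given above), PECAM1 and ITGAM, with at most 55 counts in a GNF-7 library, IVL, called at 0.47 and lost under 8 alternatives, TM7SF2, called (0.43) only without replicate 1 at 24 h, and CD68, not called, which was at -0.13 and ranged from -0.35 to 0.035 when each library was left out, the highest without replicate 3 at 24 h of GNF-7. With 0 counts in a library, up to 3 counts are compatible at the 95% level. GNF-7 in cycling cells was not analysed here, and the time in GNF-7 and the time since senescence was induced can be told apart only through DMSO.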
